A study of Mus musculus with 19 samples.

Results

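Lung RNA was compared between mice given benzo(a)pyrene (BaP) at 50 mg/kg/day and mice given it at 25 mg/kg/day, to ask which genes differed between these neighbouring doses. BaP is a polycyclic aromatic hydrocarbon that forms when organic matter burns. The arrays were chosen by their labelled dose alone: 4 mice at 50 mg/kg/day (mice 12, 13, 14 and 15) and 5 mice at 25 mg/kg/day (mice 6, 7, 8, 9 and 10), 9 of the 19 arrays in the series. The other 10 arrays, from 5 vehicle controls and 5 mice at 75 mg/kg/day, served to estimate the spread between mice. All animals were males of the transgenic MutaMouse strain 40.6, which carries a bacterial reporter gene in which mutations can be counted, and were 25 weeks old. Dosing was by mouth, daily for 28 days, with a piece of lung collected 3 days after dosing ended. The series' design states 5 mice in each group, of which 4 at 50 mg/kg/day had an array used here.

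One 2-colour array was hybridised per mouse, with lung RNA in Cy5 and a commercial reference RNA from 11 mouse cell lines in Cy3. A level below is the log2 ratio of lung over reference, so a difference of 1 between groups is a 2-fold difference in that ratio. After 1 probe was kept per gene, 19315 genes entered the test. The share of spots well above background in the lung channel was 47.9% to 58.9% at 25 mg/kg/day and 45.6% to 58.0% at 50 mg/kg/day, and the scanner software had marked the array of mouse 12, with 3 arrays of other doses, for evaluation. All 13 markers of lung epithelium, endothelium and alveolar macrophages that were checked, among them Sftpc of type 2 cells, Ager of type 1 cells, Scgb1a1 of club cells and Cdh5 of endothelium, were well above background on all 9 arrays. In bulk tissue, fewer cells of a type and less RNA per cell cannot be told apart.

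BaP binds the aryl hydrocarbon receptor (AhR), which turns on cytochrome P450 enzymes of the CYP1 family. These enzymes and epoxide hydrolase convert BaP into a diol epoxide that forms bulky adducts on guanine. Adducts that stall polymerases activate the transcription factor p53, which binds paired decamers in DNA and turns on genes for cell cycle arrest, apoptosis and repair.

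Promoters were searched for the p53 response element, a pair of adjoining decamers, 20 bases in all. The C and G at the core of each decamer were required, and mismatches elsewhere were counted. The consensus reads the same on both strands, so 1 search covered both. RefSeq promoters of GRCm38.p6 were used, from 250 bases before to 50 bases after a gene's start. The search took 19 genes: the genes fixed by name and the 12 with the largest higher values among genes with a symbol, groups that did not overlap and an unadjusted p under 0.01. Of the 19, 18 had a promoter in the table. A match with at most 1 mismatch occurred in 2 of them, Cdkn1a and Ccng1, against 22 of all 32851 promoters (0.067%). A match with at most 3 mismatches occurred in 3 of them, with Aen added, against 453 of all promoters (1.38%). Cdkn1a, Ccng1 and Aen were among the genes fixed by name as p53 targets, so these counts are a description and not a test. A gene with 2 starts counted by its closer match, while the shares over all promoters count each promoter. The 3 matches are printed because all 3 genes have values at both doses below, with the element in capitals and 20 bases on each side, and the coordinates are those of the 60 bases printed. Cdkn1a has 2 starts in the table, and the match lies 51 to 32 bases before the upstream one (chr17:29090908-29090967, plus strand, 1 mismatch). That of Ccng1 lies 195 to 176 bases before the start (chr11:40755442-40755501, minus strand, 1 mismatch). That of Aen lies 121 to 102 bases before the downstream of its 2 starts (chr7:78895917-78895976, plus strand, 3 mismatches).
Cdkn1a: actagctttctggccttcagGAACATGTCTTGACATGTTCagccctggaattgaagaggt
Ccng1: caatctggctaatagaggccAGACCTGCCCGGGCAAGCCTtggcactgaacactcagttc
Aen: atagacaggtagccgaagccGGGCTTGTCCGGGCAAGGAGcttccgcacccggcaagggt
The closest match had 6 mismatches in Gdf15 and 4 in Ces2e, the genes that passed the test. A match describes letters only, and binding was not measured here.

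Only 2 of 19315 genes (0.0104%) passed limma's moderated test at an adjusted p under 0.05, and both rose from 25 to 50 mg/kg/day: Gdf15, a stress-induced cytokine of the TGF-beta superfamily, and Ces2e, a carboxylesterase that hydrolyses esters and amides. No gene fell. An unadjusted p under 0.05 was reached by 742 genes (3.84%), 317 of them higher (1.64%) and 425 lower (2.2%) at 50 mg/kg/day, where 966 would pass if no gene differed. In 136 genes (0.704%) every mouse at 50 mg/kg/day was above every mouse at 25 mg/kg/day, and in 196 genes (1.01%) every mouse was below. The median difference over all genes was -0.01, and 9101 genes (47.1%) lay above 0.

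The low count of calls came with a bound on what could have been missed, for the ratios as processed here. The 95% interval of the difference lay within 1.5-fold either way for 17510 genes (90.7%) and within 2-fold for 18882 genes (97.8%), with a median margin of 0.24 on the log2 scale to either side of the estimate. The estimate exceeded 1.5-fold in 193 genes and 2-fold in 65. Among those the interval lay wholly beyond 1.5-fold in 5 genes and beyond 2-fold in 2. The intervals do not cover the choice of processing. Over the alternative analyses described below, Ces2a ranged from 0.29 to 1.5, Cd247 from -1.37 to -0.17 and Grp from -2.96 to -1.02. Each of these genes was well above background on only some of the arrays compared. In the reference channel, which holds the same RNA on every array, the same test called 0 genes, and 319 had an unadjusted p under 0.05. In the lung channel on its own it called 1 gene, and 442 had an unadjusted p under 0.05. Average intensities were made alike between arrays before either channel was tested, a step that leaves the ratios unchanged.

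Against the vehicle controls, the same test called 8 genes higher (0.0414%) and 2 lower (0.0104%) at 25 mg/kg/day, and 144 higher (0.746%) and 65 lower (0.337%) at 50 mg/kg/day. Among the 8 were the p53 targets Gdf15, Trp53inp1, Cdkn1a, Phlda3, Bax and Ephx1, which are described below.

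Gdf15 was at 0.05, -0.24, -0.19, -0.48 and -1.09 in mice 6, 7, 8, 9 and 10, and at 1.21, 1.41, 0.67 and 0.89 in mice 12, 13, 14 and 15. The groups did not overlap, and mouse 10 was the lowest at 25 mg/kg/day. Controls lay between -2.03 and -1.44, below every mouse at either dose. The difference between doses was 1.44 ± 0.21 (SE, n = 5 and 4), a 2.71-fold rise (95% interval 2.0 to 3.67, limma adjusted p = 0.0302). Against control, Gdf15 was 1.28 higher at 25 mg/kg/day (limma adjusted p = 0.0145) and 2.72 higher at 50 mg/kg/day (limma adjusted p = 1.04e-06). These comparisons share samples and are given side by side.

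Ces2e was at 1.23, 1.41, 0.94, 1.47 and 0.90 in the mice at 25 mg/kg/day and at 2.45, 3.30, 2.21 and 2.97 in the mice at 50 mg/kg/day. The lowest mouse at 50 mg/kg/day, mouse 14, was thus well above the highest at 25 mg/kg/day. The difference was 1.54 ± 0.24 (SE, n = 5 and 4), a 2.91-fold rise (95% interval 2.05 to 4.14, limma adjusted p = 0.0381). Ces2e was 1.00 above control at 25 mg/kg/day, which did not pass the test (limma adjusted p = 0.183), and 2.54 above control at 50 mg/kg/day (limma adjusted p = 9.06e-06). It was well above background on all 9 arrays of the comparison and on 2 of 5 control arrays. The other probe that carries the Ces2e name differed by 0.01 ± 0.08, so the rise rests on 1 probe.

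Both calls lay near the threshold and depended on the arrays and settings. Over 32 alternative analyses and the mean within slides, the difference of Gdf15 ranged from 1.05 to 1.56 and passed in 15, while that of Ces2e ranged from 1.35 to 1.78 and passed in 9. Leaving out control mouse 1 or 2, or mouse 7, 8, 9, 12, 13, 15 or 17, ended both calls. Leaving out control mouse 3 or 4, or mouse 6, 10, 16 or 19, ended that of Ces2e. On the 3 slides that held a mouse of each dose, Gdf15 was 0.92, 1.08 and 1.16 higher in the mouse at 50 mg/kg/day, and Ces2e was 0.80, 2.03 and 1.22 higher. With the slide as a block in the fit, Gdf15 no longer passed (limma adjusted p = 0.196), and Ces2e did.

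**Figure D1:**
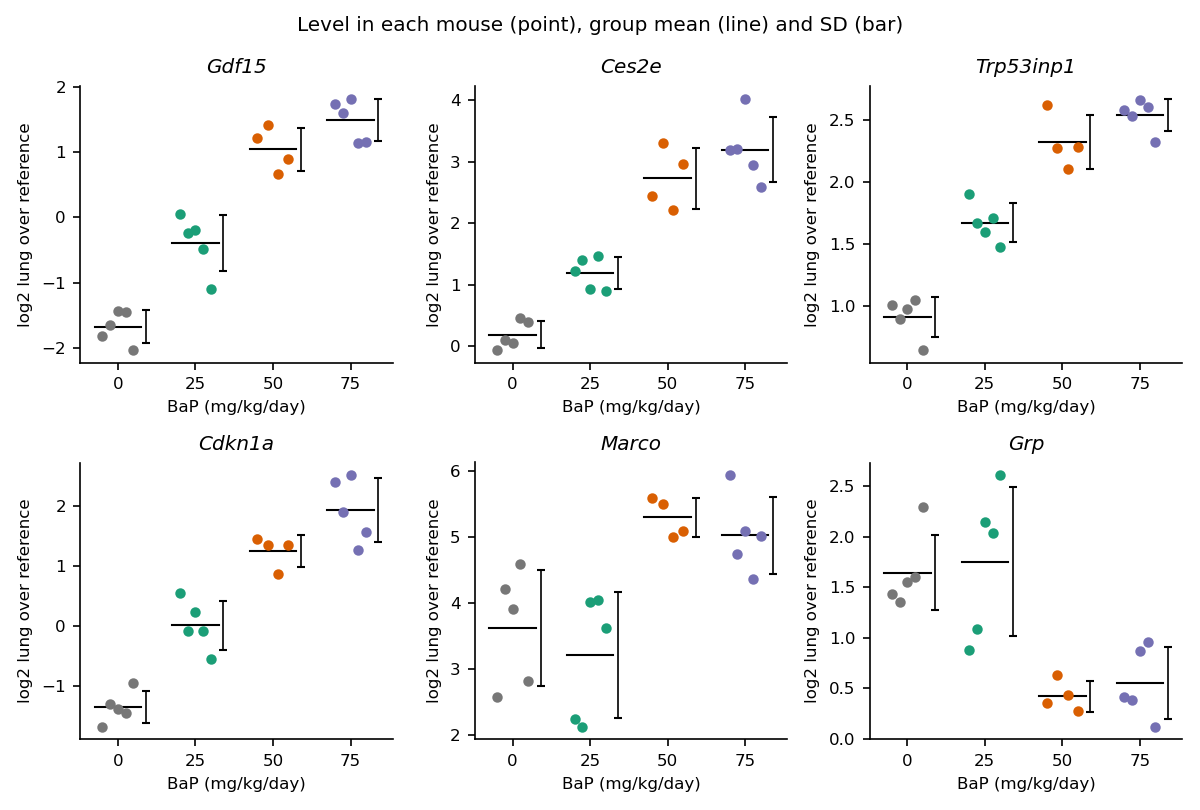
Log2 lung over reference ratio of 6 genes in each mouse, by BaP dose in mg/kg/day, with points for mice, a line for the group mean and a bar for the SD. At 25 and 50 mg/kg/day the points of all 6 genes do not overlap: Gdf15, Ces2e, Trp53inp1, Cdkn1a and Marco are higher at 50 mg/kg/day, and Grp is lower. Gdf15 has a mean of 1.49 at 75 mg/kg/day.

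**Figure D2:**
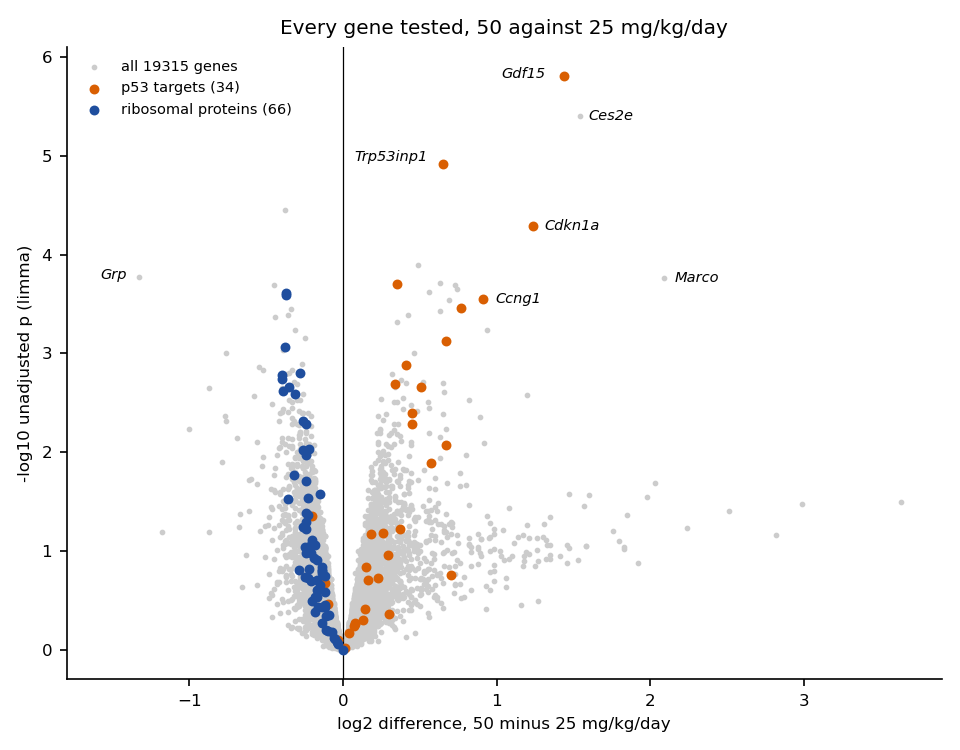
Difference between 50 and 25 mg/kg/day on the log2 scale against the -log10 of the unadjusted limma p for all 19315 genes, with 34 p53 targets and 66 ribosomal protein genes coloured. Of the p53 targets 30 lie right of 0, and of the ribosomal protein genes 65 lie left of 0; Gdf15 and Ces2e are at the top.

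Targets of p53 were mostly higher by value. Of 35 genes on the p53 list 34 were tested, and 30 were above 0 (all genes 47.1%). In 10 of the 34 (29.4%, against 0.704% of all genes) every mouse at 50 mg/kg/day was above every mouse at 25 mg/kg/day, and 14 (41.2%, against 1.64%) were higher at an unadjusted p under 0.05, but Gdf15 alone passed after adjustment. The list's median difference was 0.29, its median over control was 0.15 at the lower dose and 0.43 at the higher dose, and the median between doses stayed between 0.25 and 0.35 over the alternatives. The mean level over the list, from the control mean, was 0.41, 0.26, 0.33, 0.27 and 0.17 in mice 6 to 10 and 0.72, 0.67, 0.48 and 0.70 in mice 12 to 15. The groups were apart on this measure, with mouse 14 the lowest at 50 mg/kg/day. The list was drawn up with earlier results of these arrays known, so these counts are a description and not independent evidence of direction.

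Trp53inp1, whose nuclear protein promotes p53 activity, had the next smallest p after Gdf15 and Ces2e. It was at 1.90, 1.67, 1.6, 1.71 and 1.48 at 25 mg/kg/day and at 2.62, 2.27, 2.10 and 2.28 at 50 mg/kg/day. The difference of 0.65 ± 0.11 (SE, n = 5 and 4), 1.57-fold, did not pass the test (limma adjusted p = 0.0789), and its second probe was 0.53 ± 0.13 higher. It passed with array quality weights, without control mouse 5 and without mouse 14. Against control it was 0.75 higher at 25 mg/kg/day (limma adjusted p = 0.00475). Of Gdf15, Trp53inp1, Cdkn1a, Phlda3, Bax and Ephx1, it had the lowest adjusted p at that dose.

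Cdkn1a encodes p21, the inhibitor of cyclin-dependent kinases through which p53 stops the cell cycle, and its promoter holds the first sequence above. Its level was 0.55, -0.09, 0.23, -0.09 and -0.55 at 25 mg/kg/day and 1.44, 1.35, 0.86 and 1.35 at 50 mg/kg/day. Every mouse at the higher dose was above every mouse at the lower one, and mouse 14 stood below the other 3. The difference was 1.24 ± 0.24 (SE, n = 5 and 4), 2.37-fold with a 95% interval of 1.67 to 3.35, and did not pass the test (limma adjusted p = 0.199). Against control Cdkn1a was 1.36 higher at 25 mg/kg/day and 2.60 higher at 50 mg/kg/day, both past the test (limma adjusted p = 0.0233 and 6.64e-06).

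Ccng1, the gene of cyclin G1, with the second sequence above, was at 1.38, 0.84, 1.03, 0.58 and 0.73 at 25 mg/kg/day and at 2.05, 1.77, 1.48 and 1.99 at 50 mg/kg/day. Its difference was 0.91 ± 0.21 by the probe used and 0.77 ± 0.14 by a second probe. Phlda3, which restrains AKT signalling, was at 0.77 to 1.66 at 25 mg/kg/day and 1.72 to 2.21 at 50 mg/kg/day, a difference of 0.77 ± 0.18. Sesn2, a sestrin that restrains growth signalling under stress, differed by 0.67 ± 0.17, from -0.47 to 0.09 at 25 mg/kg/day and from 0.37 to 0.73 at 50 mg/kg/day. None of the 3 passed the test between doses, while the groups of each did not overlap.

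The remaining members of the 10 that were apart showed smaller differences. Mdm2, the ubiquitin ligase that degrades p53, was at -0.23, -0.27, -0.36, -0.29 and -0.28 at 25 mg/kg/day and at -0.01, 0.39, 0.16 and 0.37 at 50 mg/kg/day, 0.51 ± 0.15 higher, and its second probe was 0.25 ± 0.09 higher. Bax, which opens the outer mitochondrial membrane in apoptosis, was at -0.47 to -0.11 and at 0.01 to 0.13, a difference of 0.34 ± 0.09. Ei24 (0.35 ± 0.08) and Zmat3 (0.45 ± 0.14) complete the 10 and were named after their values were seen. Against control at 25 mg/kg/day, Bax had already passed the test (0.57 higher, limma adjusted p = 0.0145) and Mdm2 had not (0.27 higher, limma adjusted p = 0.661).

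Other p53 targets overlapped between doses. Aen, an apoptosis-enhancing nuclease with the third sequence above, was at 0.94, 0.15, 0.11, 0.22 and -0.21 and then at 1.64, 0.78, 0.57 and 0.65, a difference of 0.67 ± 0.23 in which mouse 6 stood above 3 of the 4 mice at 50 mg/kg/day. The other Aen probe differed by 0.05 ± 0.10. Polk, the translesion polymerase that can copy past BaP adducts, differed by 0.41 ± 0.11, with mouse 14 at 0.36 just under mouse 6 at 0.37. Ephx1, the epoxide hydrolase that also takes part in BaP activation, differed by 0.45 ± 0.14, and by 0.52 ± 0.22 with the other probe. Ddb2, a damage sensor of nucleotide excision repair, was lower by value, -0.20 ± 0.09 with an unadjusted p of 0.0438. The 95% interval lay within 1.5-fold either way for 18 of the 34 targets.

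**Figure D3:**
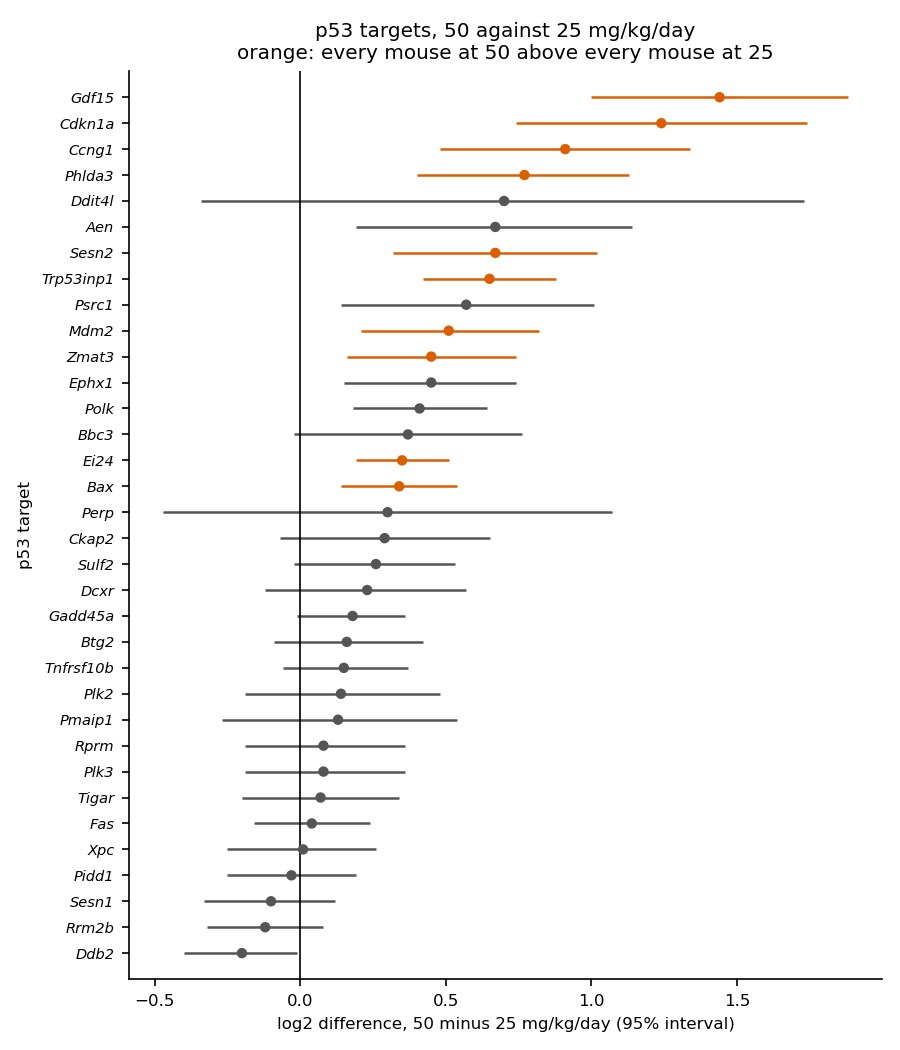
Difference between 50 and 25 mg/kg/day on the log2 scale with its 95% interval for each of the 34 p53 targets tested, in order of size, orange where every mouse at 50 mg/kg/day was above every mouse at 25 mg/kg/day. The values run from -0.20 for Ddb2 to 1.44 for Gdf15, and 10 are orange.

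Targets of AhR, which include the CYP1 enzymes of BaP metabolism, held no call. Of 14 genes tested on the AhR list, which also holds Ahr itself and Arnt, none passed. Of these, 10 were above 0, and the median difference was 0.05. Cyp1a1, the AhR-driven enzyme that oxidises BaP, was at 0.27, 0.20, 1.21, 0.50 and 0.72 at 25 mg/kg/day and at 0.97, 0.55, 0.40 and 0.32 at 50 mg/kg/day. These ranges overlap, and controls lay from 0.84 to 2.27. Its difference was -0.02 ± 1.01, where the wide error comes from the 75 mg/kg/day group (SD 3.14) that shares the fit. With the 9 arrays alone the error was 0.20. Cyp1b1 differed by 0.06 ± 0.46 (0.11 with the 9 arrays alone) and Nqo1, a quinone reductase, by 0.17 ± 0.27. Ahr itself was 1.56, 1.65, 1.59, 1.58 and 1.97 at 25 mg/kg/day and 1.09, 1.42, 1.56 and 1.54 at 50 mg/kg/day, lower by value at -0.27 ± 0.12, with mouse 14 and mouse 6 level to 2 decimals.

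Among 16 carboxylesterases and other hydrolases tested, Ces2e alone passed, and the list's median was 0.06. Ces2a, a close relative, was 0.38 ± 0.13 higher with overlapping groups and was well above background on 2 of 5 arrays at 25 mg/kg/day. The 17 cytochrome P450 genes of families 2 to 4 had a median of 0.09 and no call. NRF2 targets (19 tested, median -0.04), nucleotide excision repair genes (22 tested, median 0.00) and proliferation genes (28 tested, median -0.04) likewise held no call, and all 22 repair genes had intervals within 1.5-fold. Of 10 translesion synthesis genes only Polk had an unadjusted p under 0.05.

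Among the 12 largest higher values with groups apart and an unadjusted p under 0.01 were 5 genes outside the p53 and esterase lists. There were 39 such genes with a symbol, of 12323 (0.316%). Marco, a scavenger receptor of alveolar macrophages, was at 2.25, 2.13, 4.02, 4.04 and 3.63 at 25 mg/kg/day and at 5.59, 5.50, 5.00 and 5.10 at 50 mg/kg/day. It was 2.09 ± 0.45 higher (4.25-fold, limma adjusted p = 0.307), while controls spread from 2.58 to 4.59. The difference from control was thus -0.41 at the lower dose and 1.68 at the higher dose, and neither passed. The other 13 macrophage markers tested ranged from -0.56 to 1.46, with 6 above 0.

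Inka2, an inhibitor of the kinase PAK4, was at 0.90 to 1.49 at 25 mg/kg/day and 1.59 to 2.40 at 50 mg/kg/day, 0.74 ± 0.16 higher by the probe used and 0.48 ± 0.18 by the other. Slc19a2, a thiamine transporter, was at -1.03 to -0.67 and at -0.60, -0.32, -0.10 and 0.27, a difference of 0.69 ± 0.15. Sncg, gamma-synuclein, was at 0.23 to 0.73 and at 1.11 to 1.68, a difference of 0.94 ± 0.23, and its controls reached 1.11. Azgp1, a secreted lipid-mobilising glycoprotein, was at 0.08 to 0.31 at 25 mg/kg/day and at 0.37, 3.13, 0.94 and 1.18 in mice 12 to 15. Mouse 13 set much of that difference of 1.2 ± 0.35, which was 0.62 without the mouse. None of the 5 passed the test between doses, and Inka2 and Slc19a2 passed it against control at 50 mg/kg/day (limma adjusted p = 0.000225 and 0.00164).

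Lower values were smaller and none passed. There were 41 genes with a symbol whose groups were apart on the low side at an unadjusted p under 0.01, of 12323 (0.333%). Grp, the gene of gastrin-releasing peptide, which neuroendocrine cells of the airway secrete, was at 0.88, 1.09, 2.15, 2.04 and 2.61 at 25 mg/kg/day and at 0.35, 0.63, 0.43 and 0.27 at 50 mg/kg/day. The difference was -1.33 ± 0.29 (limma adjusted p = 0.307), and Grp was well above background on 2 of the 4 arrays at 50 mg/kg/day. Esm1, an endothelial proteoglycan, was at 3.03 to 3.89 and at 1.96 to 2.98, a difference of -1.0 ± 0.32, with controls from 2.27 to 3.71. Tmeff2, a membrane protein with follistatin domains, differed by -0.87 ± 0.25, and mouse 8 at 0.71 and mouse 14 at 0.70 all but touched, and its other probe differed by -0.58 ± 0.24.

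Smaller differences on the low side were those of Cpne5 (-0.55 ± 0.15), Dnah8, a dynein heavy chain (-0.52 ± 0.14), Anxa5, a phospholipid-binding annexin (-0.46 ± 0.14), Slc14a1, a urea transporter (-0.45 ± 0.10), and Mfap2, a protein of elastic microfibrils (-0.38 ± 0.13). Slc14a1 was tight at 25 mg/kg/day, from -1.64 to -1.45, and lay from -2.09 to -1.75 at 50 mg/kg/day. Other probes gave smaller values for 3 of these genes: -0.14 ± 0.12 for Cpne5, -0.24 ± 0.12 for Slc14a1 and -0.15 ± 0.10 for Mfap2.

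The other 4 of the 12 largest lower values were genes of ribosomal proteins, Rps27, Rpl22l1, Rps15 and Rpl13. Ribosomal protein genes encode the protein part of the ribosome and are among the most highly transcribed genes of any cell. Of 66 tested 65 were below 0, where 47.1% of all genes were above it, and 1, Rpl15, stood at 0.00. In 17 of the 66 (25.8%, against 1.01% of all genes) every mouse at 50 mg/kg/day was below every mouse at 25 mg/kg/day, and 21 (31.8%, against 2.2%) were lower at an unadjusted p under 0.05. None passed after adjustment. Differences were small, from -0.40 to 0.00 with a median of -0.20, which ranged from -0.25 to -0.15 over the alternatives. Measured from the median of all genes, the list's median was -0.19 as reported and -0.22 with the slide as a block. It was -0.12 with the authors' deposited table and -0.08 with Feature Extraction's processed signals, where the median of all genes was -0.07.

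Rpl13 was at -0.95, -0.99, -0.86, -0.94 and -0.89 at 25 mg/kg/day and at -1.34, -1.30, -1.28 and -1.29 at 50 mg/kg/day, with SDs of 0.05 and 0.03. The difference was -0.38 ± 0.10, and -0.29 ± 0.18 with the other probe. Rpl12 was at -0.91 to -0.75 and at -1.33 to -1.08, a difference of -0.37 ± 0.08, and Rpl30 at -1.0 to -0.86 and at -1.45 to -1.14, also -0.37 ± 0.08. Rps27 and Rpl22l1 each differed by -0.40 ± 0.11 and Rps15 by -0.39 ± 0.11. The means of all 6 were below the control mean at both doses. Rpl13 was -0.26 from control at the lower dose and -0.64 at the higher dose, the latter past the test (limma adjusted p = 0.00177).

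The mean level over the ribosomal protein list, from the control mean, was -0.14, -0.17, -0.06, -0.25 and -0.14 in mice 6 to 10 and -0.33, -0.44, -0.27 and -0.37 in mice 12 to 15, so that mouse 9 at -0.25 stood just above mouse 14 at -0.27. The reference channel differed too: its median over the list was 0.07 higher on the arrays at 50 mg/kg/day, with 55 of 66 genes above 0, while the lung channel's was -0.14, with 62 of 66 below 0. Its part in the result was not tested. Without mouse 12, 25 members were lower at an unadjusted p under 0.05 (1.73% of all genes), and without mouse 13 there were 17 (2.14%). Without the arrays marked for evaluation there were 30 (2.44%). These counts were made after the data were seen. Many ribosomal protein genes have near-identical pseudogenes, so a probe may read more than 1 copy.

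**Figure D4:**
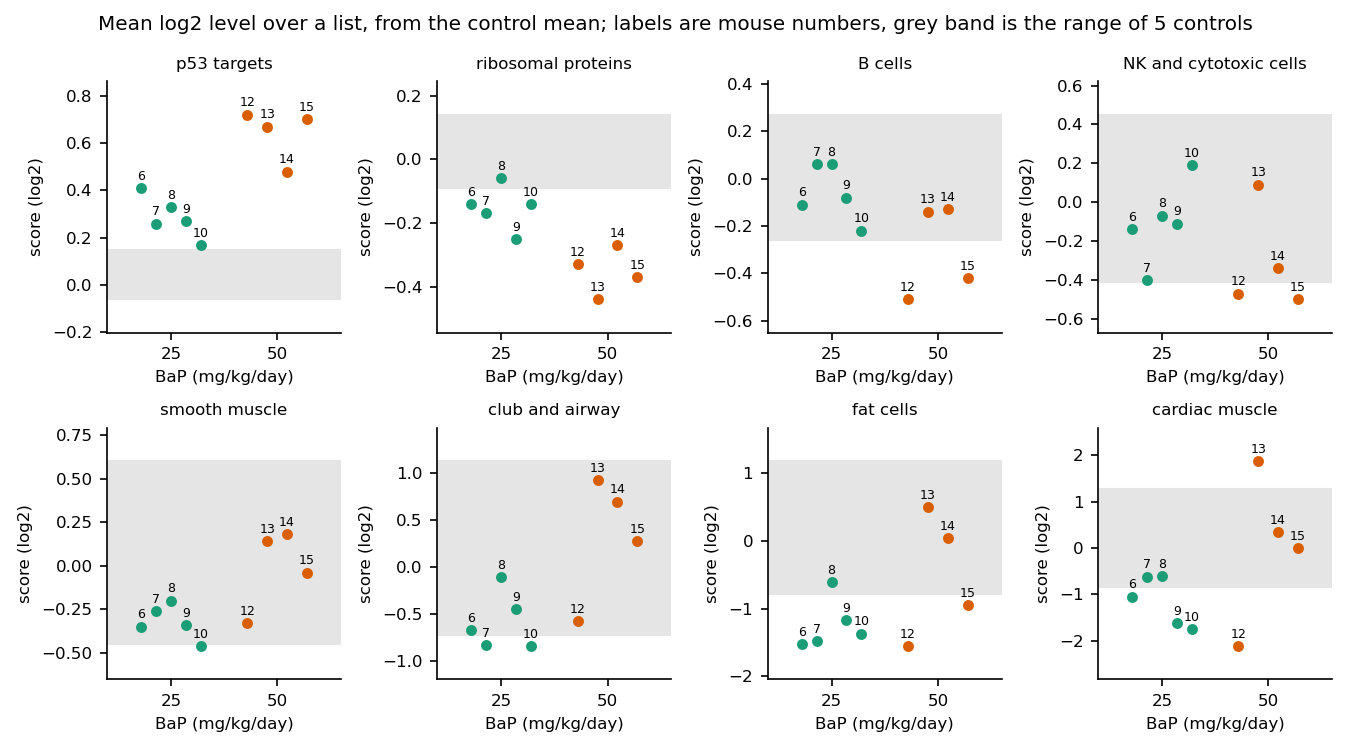
Mean log2 level over a gene list, from the control mean, in each mouse at 25 and 50 mg/kg/day, with the mouse number at each point and the range of the 5 controls in grey. The groups are apart for p53 targets and ribosomal proteins; for smooth muscle, airway, fat and cardiac muscle genes mouse 12 lies among the mice at 25 mg/kg/day or below them, with cardiac scores of -2.11 in mouse 12 and 1.87 in mouse 13.

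Genes of lymphocytes leaned low without a call. Of 21 B cell genes 20 were below 0, the median was -0.25, and 6 (28.6%, against 2.2% of all genes) were lower at an unadjusted p under 0.05, a count that was 2 without mouse 12 and 1 without the arrays marked for evaluation. Tnfrsf13c, the receptor for the survival factor BAFF, was at 0.97 to 1.26 at 25 mg/kg/day and at 0.48, 0.91, 0.93 and 0.63 at 50 mg/kg/day, a difference of -0.37 ± 0.13. Cd79b, of the B cell receptor, differed by -0.44 ± 0.16 with overlapping groups. All 11 genes of NK and cytotoxic cells were below 0 (median -0.13), as were 14 of 16 T cell genes (median -0.17), and none of the 11 and 2 of the 16 had an unadjusted p under 0.05. One of those 2, Cd247, a chain of the T cell receptor complex, had groups apart (-0.21 ± 0.07) but was well above background on only 2 of the 9 arrays. Over the alternatives the median ranged from -0.47 to -0.19 for B cell genes, from -0.63 to -0.08 for NK and cytotoxic cell genes and from -0.33 to -0.09 for T cell genes, with each lower end from Feature Extraction's processed signals. B cell scores were lowest in mice 12 and 15 (-0.51 and -0.42), while mice 13 and 14 (-0.14 and -0.13) lay among the mice at 25 mg/kg/day.

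Genes of muscle, fat and airway differed widely from mouse to mouse, and the cause was not tested. All 13 cardiac muscle genes tested were above 0 with a median of 1.27, all 12 smooth muscle genes with a median of 0.39, 10 of 11 fat cell genes with a median of 0.59, and 15 of 17 club and airway genes with a median of 0.26. Skeletal muscle genes lay on both sides, with 10 of 14 above 0 and a median of 0.20. With the slide as a block the medians were 0.63 for cardiac muscle, 0.15 for smooth muscle, 0.34 for fat, 0.21 for airway and -0.56 for skeletal muscle genes. Without mouse 12 the cardiac median was 2.01, and without mouse 13 it was 0.65. No gene of these lists passed the test. An unadjusted p under 0.05 on the high side was reached by 5 of 17 airway genes (29.4%, against 1.64% of all genes). It was also reached by 2 of 12 smooth muscle genes (16.7%) and 2 of 13 cardiac muscle genes (15.4%), and by no fat or skeletal muscle gene. The cardiac score was -2.11, 1.87, 0.34 and 0.00 in mice 12 to 15, against -1.75 to -0.61 at 25 mg/kg/day and -0.84 to 1.27 in controls. Bpifa1, an airway secretory protein, was at 0.18, 7.30, 7.14 and 3.99 in mice 12 to 15, at 0.28 to 1.86 at 25 mg/kg/day and at 0.19 to 7.41 in controls. In mouse 12, the lowest for these lists at 50 mg/kg/day, Gdf15 (1.21) and Ces2e (2.45) lay within the range of the other 3 mice, and Cdkn1a (1.44) and Trp53inp1 (2.62) above it. Mouse 13 was the highest at that dose for cardiac muscle, skeletal muscle, fat and airway genes. It was also the highest for Gdf15 (1.41) and Ces2e (3.30), but not for Cdkn1a (1.35) or Trp53inp1 (2.27). The part of these genes in the other results was not tested.

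Acta2, smooth muscle actin, was the smooth muscle gene with groups apart, at -1.45 to -1.10 at 25 mg/kg/day and -1.02 to -0.45 at 50 mg/kg/day, 0.44 ± 0.15 higher, with controls from -1.23 to -0.53. The other 2 Acta2 probes differed by 0.16 ± 0.14 and 0.06 ± 0.39. Of 24 genes of capillary endothelium the median was 0.07, and single members lay far on both sides. Gpihbp1, which carries lipoprotein lipase across capillary walls, was at 4.36 to 4.92 and at 3.62 to 4.37, a difference of -0.76 ± 0.20 in which mouse 15 and mouse 10 overlapped by 0.01. Ednrb, an endothelin receptor, differed by -0.77 ± 0.24 (-0.55 ± 0.23 with the other probe) and Mmrn2, an endothelial matrix protein, by 0.89 ± 0.27. Alveolar type 1 genes (13 tested, median -0.04) and type 2 genes (15 tested, median -0.02) held no member with an unadjusted p under 0.05.

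**Figure D5:**
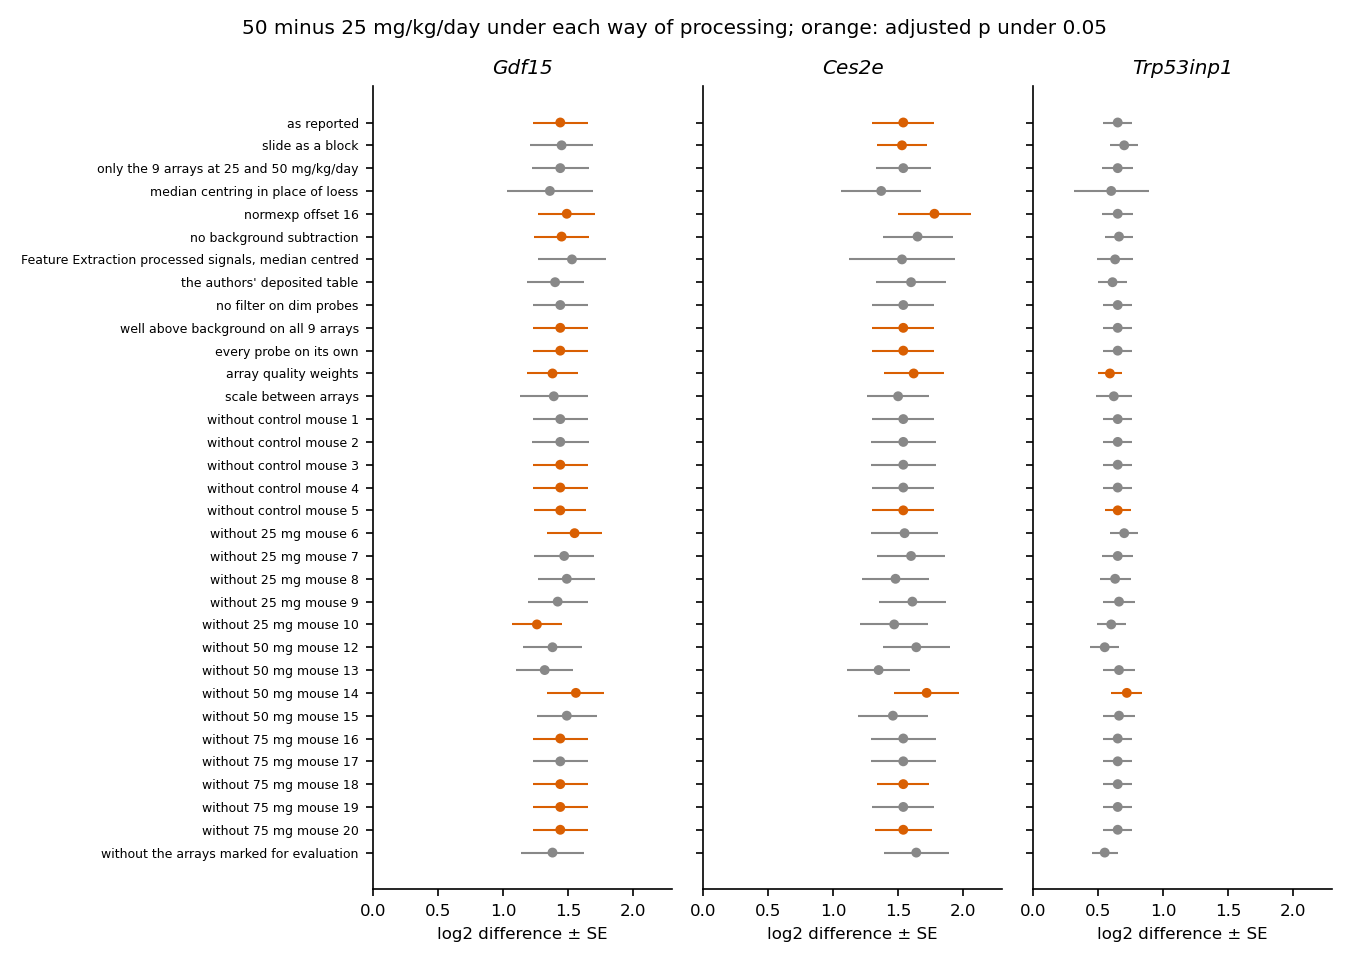
Difference between 50 and 25 mg/kg/day on the log2 scale with its SE for Gdf15, Ces2e and Trp53inp1 under the reported settings and each of 32 alternatives, orange where limma's adjusted p was under 0.05. Beside the reported analysis, Gdf15 passed in 15 alternatives, Ces2e in 9 and Trp53inp1 in 3, while the points move little.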

How the data were processed

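The deposited files hold spot intensities read, per the file headers, by Feature Extraction 10.7.3.1, with 45018 spots per array. Median spot and local background intensities were used, and flagged outlier spots (0.29%) were left out. The authors' deposited table of log2 ratios served as an alternative. It followed each array's ratios, normalized by loess without background subtraction, with r of 0.995 to 0.998. Its column medians were -0.053 to -0.033, and its centring stays unknown. Background was corrected with normexp (offset 50) and ratios normalized by loess within arrays in limma 3.58.1 (R 4.3.3). Probes had to be well above background for lung RNA on 4 or more of the 19 arrays, and the brightest per gene was kept, named through RefSeq symbols (12323) or by accession (6992). One model with a mean per dose was fitted to all 19 arrays, with Benjamini-Hochberg adjustment over 19315 genes and a threshold of 0.05. The fit was tested on simulated data.

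Named were genes past the threshold, the 12 largest values each way with a symbol, groups apart and an unadjusted p under 0.01, the 3 members of each list with the smallest p, and 11 fixed genes. The comparison, the lists and the named genes were chosen with earlier results of these data known. Labels tell the mice of a dose apart by number alone, and p-values measure the spread between these samples. The number of arrays limits the precision.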

Additional observations from a re-analysis of the deposited data

Results flagged for a closer look

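Of 204 groups of values looked at (66 genes and 36 lists at each of the doses compared), 7 had 1 mouse far from the rest of its group, and chance alone marks about 5% of groups. At 25 mg/kg/day, mouse 8 was the highest for Cfd, complement factor D of fat cells (4.69, others -0.17 to 0.42), for Adipoq, the gene of adiponectin (0.76, others -0.19 to 0.07), and for Cyp1b1 (-0.57, others -1.07 to -0.96). Mouse 10 was the highest for Ahr (1.97, others 1.56 to 1.65). At 50 mg/kg/day, mouse 14 was the lowest for Cdkn1a (0.86, others 1.35 to 1.44) and the highest for the mean over the AhR list (0.07, the other 3 at -0.06). Mouse 12 was the lowest for Rps15 (-1.89, others -1.74 to -1.72).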

How the results depend on the processing

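The 2 calls were the result that changed most. The number of genes called was 2 with a normexp offset of 16, with probes well above background on all 9 arrays and with every probe tested on its own. It was 1 with the slide as a block (Ces2e) or without background subtraction (Gdf15), and 3 with array quality weights. It was 0 with the 9 arrays alone (828 at an unadjusted p under 0.05), median centring (124), Feature Extraction's processed signals (1438), the authors' deposited table (811), no filter on dim probes (1395), scaling between arrays (574) and without the 4 arrays marked for evaluation (999). Leaving out 1 mouse gave 0 to 4 calls: 0 without control mice 1 or 2, or mice 7, 8, 9, 12, 13, 15 or 17 (650 to 822 at an unadjusted p under 0.05), 3 without control mouse 5 and 4 without mouse 14. The cause was not tested. Of 2163 values for 66 genes, 2112 counted as unchanged, 40 lost the call, 3 gained it (Trp53inp1) and 8 turned sign on refitting, all close to 0. The 8 were Nqo1 at -0.04 with the slide as a block and -0.02 with processed signals, Cyp1b1 at -0.07 with the slide as a block, and Cyp1a1 at 0.01 with an offset of 16 and, over the analyses with 1 mouse left out, at -0.16 to 0.14. Refits that counted as unchanged kept direction and side of the threshold. The mean within slides counted as unchanged where it differed from the reported value by no more than the spread between mice. List medians moved by less than the spread between mice in 1102 of 1116 values. Among counts added after the data were seen, that of B cell genes at an unadjusted p under 0.05, 6 of 21, was 2 without mouse 12 and 1 without the marked arrays (range 2 to 7 when mouse 12 or 13 was left out), and that of p53 targets was 14 each time. The mean within slides, a value with no test, turned sign for Cyp1b1 (-0.01), which is among the 2112. Mice could not be paired between doses by label, because each has its own replicate number and the doses share none. Instead, the slide of each of the 19 arrays was the block in an alternative fit. Differences within slides were taken, without a test, on the 3 slides that held both doses.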

Other observations

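Genes of the respiratory chain, which the mitochondrion uses to make ATP, lay slightly higher at 50 than at 25 mg/kg/day. Of 37 tested 31 were above 0, with a median of 0.10 and a range from -0.21 to 0.24, none had an unadjusted p under 0.05, and the median ranged from 0.01 to 0.15 over the alternatives. The mean over the list was 0.15 in mouse 13, where the other 3 mice at 50 mg/kg/day lay at -0.15, -0.05 and -0.13, within or near the -0.16 to -0.10 of the mice at 25 mg/kg/day. Circadian clock genes had a median of 0.14, with 13 of 16 above 0 and no unadjusted p under 0.05. Immediate early genes had a median of 0.06, and Klf4, a transcription factor that responds quickly to stimuli, was the member with groups apart, at 1.55 to 1.94 at 25 mg/kg/day and 1.97 to 2.44 at 50 mg/kg/day (0.44 ± 0.15), with controls from 1.54 to 2.38. Interferon-stimulated genes (18 tested) and heat shock genes (18 tested) had medians of 0.00 with no unadjusted p under 0.05.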
